A study of Homo sapiens with 2 samples.

Results

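The 32 genes described here encode the enzymes that make cholesterol and fatty acids, together with the proteins that sense and carry sterols. They were chosen by their gene name on the array, with earlier results of these data known. The list holds 8 genes of the mevalonate pathway, 10 of squalene and sterol synthesis, 6 of sterol sensing and transport, and 8 of fatty acid synthesis. These genes are 32 of the 30484 gene names on the array. All 32 had at least 1 probe, 52 probes in all, and each of the 52 was well above background in both cell populations, so none of the genes was lost to the filter on dim probes.

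Total RNA was compared between SAS cells, an established line from a human squamous carcinoma of the tongue, and eSAS cells, the population left after 5 rounds of selecting SAS cells for spheroid formation with a removable filter. The labels give no transgene, knockdown or drug treatment for either array, and the same serum-containing medium for both. RNA was taken in log growth phase according to the study. As a model, eSAS is a selected population of a single line, and each population was measured on 1 array. Without replicates the populations could not be tested against each other, and every difference is a difference between 2 arrays whose precision is limited by their number.

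The signal given for each probe is the scanner software's background-corrected intensity, in linear units and before scaling. A fold is eSAS over SAS after each array was scaled to its 75th percentile, and where a gene had several probes their log2 ratios were averaged. The log2 ratio varied with an SD of 0.076 among replicate spots of a probe (214 probes) and with an SD of 0.20 among different probes of a gene (5334 genes). Both are technical spreads within these arrays and leave out the variation between cultures. All 12 squamous epithelial markers, such as keratins and desmosomal genes, were well above background on both arrays, with summed signals of 334749 in SAS and 326075 in eSAS. Of 4 hepatocyte markers, including albumin and apolipoprotein B, none was well above background on either array (summed signals of 33.0 and 60.4), and 2 of 4 adipocyte markers were on both (538 and 519), with LEP and PLIN among those that were not in eSAS. In RNA from whole cultures, fewer cells of a type and less RNA per cell cannot be told apart.

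Cells make cholesterol from acetyl-CoA. Acetyl-CoA is built up to mevalonate, mevalonate is turned into isoprenoid units, these are joined to squalene, and squalene is closed into a ring and trimmed to cholesterol. Fatty acids start from the same acetyl-CoA and are made by carboxylation, repeated chain extension, elongation and desaturation. Both routes are controlled by the transcription factors SREBF1 and SREBF2 (also called SREBP1 and SREBP2). SCAP escorts them out of the endoplasmic reticulum when membrane sterol is low, and the INSIG proteins hold them back when it is high. SREBF2 is best known for the cholesterol genes and SREBF1 for the fatty acid genes. Serum lipoproteins supply cholesterol to cultured cells, and the genes of synthesis are known to respond to that supply.

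The cholesterol genes had mostly higher signals in eSAS than in SAS. Of the 32 genes, 12 were at least 1.5-fold higher in eSAS (37.5%), where 3.19% of all 19467 genes measured on both arrays were. None was at least 1.5-fold lower, against 4.99% of all genes. A 2-fold difference was reached by 2 of the 32, HMGCS1 and INSIG1, against 1.01% of all genes, and none was 2-fold lower, against 1.37%. The log2 ratio was above 0 for 27 of the 32, where it was for 49.8% of all genes. Counted by probe, 20 of the 51 probes that were not marked as uneven were at least 1.5-fold higher, against 3.09% of 26659 probes, and 46 were above 0, against 49.2%. The median log2 ratio was 0.43 (1.35-fold) over the 32 genes and -0.0012 over all genes, except that a different background correction (normexp on all spots), which moved the median of all genes to 0.68, left the 32 genes -0.27 relative to that median. With the 26 eSAS spots left out whose local background the software had marked as uneven, normexp gave 11 of the same 12 genes.

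The 4 groups differed in how much of this they held. The median log2 ratio was 0.76 in the mevalonate pathway, with 5 of 8 genes at least 1.5-fold higher, and 0.66 in squalene and sterol synthesis, with 5 of 10. It was 0.32 in sterol sensing and transport, with 2 of 6, and 0.26 in fatty acid synthesis, with none of 8. Counted together, 10 of the 18 enzymes of the mevalonate and sterol pathways were at least 1.5-fold higher (55.6%), and 16 had a log2 ratio above 0. These are descriptions of single arrays, and whether the groups differ was not tested.

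**Figure D1:**
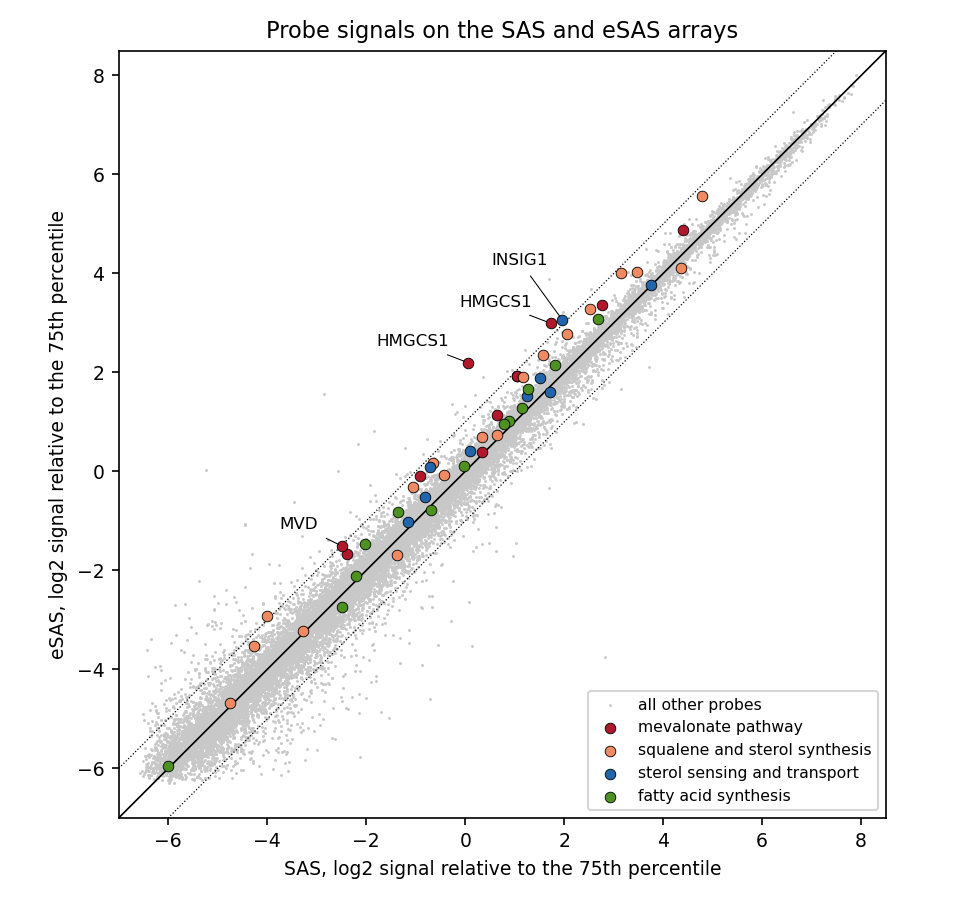
Log2 processed signal of each probe on the SAS array (x axis) and on the eSAS array (y axis), relative to the 75th percentile of each array. Coloured points are the 51 probes of the 32 genes that the software had not marked, grey points all other probes well above background on both arrays, the solid line equal values and the dotted lines a 2-fold difference. Of the coloured points, 46 lie above the line of equal values, and both HMGCS1 probes, the INSIG1 probe and a dim LSS probe lie above the 2-fold line.

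Because these genes share known regulators, their promoters were examined for the letters that those regulators bind. The promoters of 5 genes are printed. HMGCS1 and INSIG1 are the genes with the largest folds, MVD the next, SREBF2 the only one with the full sterol regulatory element, and PMVK a pathway gene whose signal hardly differed. Each is the 250 bases before the most upstream transcription start in the RefSeq table (GRCh38.p14), written 5′ to 3′ on the strand of the gene. HMGCS1 lies at chr5:43313413-43313662 (minus), INSIG1 at chr7:155297628-155297877 (plus), MVD at chr16:88663092-88663341 (minus), SREBF2 at chr22:41832855-41833104 (plus) and PMVK at chr1:154936720-154936969 (minus). Capitals mark a CCAAT box (CCAAT, or ATTGG on the other strand), an E-box (CACGTG), and the sterol regulatory letters (TCACNCCAC, or the shorter CACNCCAC inside them, on either strand).
HMGCS1: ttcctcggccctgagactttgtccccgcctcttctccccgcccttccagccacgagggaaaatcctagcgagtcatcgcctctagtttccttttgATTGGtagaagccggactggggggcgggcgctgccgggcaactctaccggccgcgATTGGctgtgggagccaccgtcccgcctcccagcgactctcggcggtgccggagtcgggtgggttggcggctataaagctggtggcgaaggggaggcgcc
INSIG1: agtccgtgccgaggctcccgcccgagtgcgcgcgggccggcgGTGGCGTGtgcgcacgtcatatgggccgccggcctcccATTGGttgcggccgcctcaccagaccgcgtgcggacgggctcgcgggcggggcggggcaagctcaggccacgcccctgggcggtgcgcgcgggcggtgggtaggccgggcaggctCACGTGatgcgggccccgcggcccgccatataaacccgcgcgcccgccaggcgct
MVD: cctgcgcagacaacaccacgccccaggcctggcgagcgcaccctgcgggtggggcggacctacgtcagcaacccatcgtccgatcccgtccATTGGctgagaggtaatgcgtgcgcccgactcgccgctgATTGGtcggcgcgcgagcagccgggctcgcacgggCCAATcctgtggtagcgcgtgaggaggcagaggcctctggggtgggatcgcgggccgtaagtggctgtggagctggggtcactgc
SREBF2: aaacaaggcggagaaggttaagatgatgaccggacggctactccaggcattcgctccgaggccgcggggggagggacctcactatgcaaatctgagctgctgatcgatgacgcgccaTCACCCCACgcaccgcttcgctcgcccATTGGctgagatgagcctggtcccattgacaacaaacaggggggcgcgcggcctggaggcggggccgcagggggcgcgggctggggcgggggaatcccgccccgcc
PMVK: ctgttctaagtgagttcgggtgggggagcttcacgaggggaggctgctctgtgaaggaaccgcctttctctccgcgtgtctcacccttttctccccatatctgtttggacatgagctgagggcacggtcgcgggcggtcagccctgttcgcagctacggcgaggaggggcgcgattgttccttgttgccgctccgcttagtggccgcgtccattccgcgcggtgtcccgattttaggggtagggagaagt
The HMGCS1 window holds 2 inverted CCAAT boxes, which start at positions -155 and -100 relative to the start. The INSIG1 window holds the shorter sterol letters on the minus strand (GTGGCGTG, at -208), an inverted CCAAT box at -170 and an E-box at -55. MVD holds 3 CCAAT boxes, 2 of them inverted, and no sterol letters. In SREBF2 the full element TCACCCCAC starts at -133, followed by an inverted CCAAT box at -106. PMVK holds none of these letters.

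RefSeq promoters, here 250 bases before to 50 after a start, were listed for 28 of the 32 genes, in 40 windows. ACAT2, FASN, FDFT1 and SQLE were not matched. A CCAAT box, bound by the factor NF-Y, was in 21 of the 28 genes (75%) and in 42.1% of 15843 coding genes. Counted by window it was in 25 of 40, and in 34.6% of all 35116 promoters. The GC box GGGCGG, bound by SP1, was in 26 of the 28 (92.9%), in 64.3% of coding genes and in 45.0% of all promoters. The full sterol element was in 1 of the 28 (3.57%) against 1.51% of coding genes and 1.13% of all promoters. The shorter letters, chosen after the data were seen, were in 6 of the 28, namely ACACA, IDI1, INSIG1, SC5DL, SCD and SREBF2 (21.4%, against 7.98% of coding genes and 5.87% of promoters). The E-box, which SREBPs and other factors of their class bind, was in 5 of the 28 (17.9%, against 10.9% and 7.26%): ELOVL5, INSIG1, LSS, SC5DL and SCAP. A match describes letters only, and genes with several listed starts had more windows to hold one. The log2 ratios of the 6 genes with the shorter sterol letters ranged from -0.0026 (ACACA) to 1.11 (INSIG1). Those of the 5 genes with an E-box ranged from -0.10 (SCAP) to 1.11 (INSIG1). Genes with a CCAAT box ranged from -0.30 (NSDHL, the lowest of the 32) to 1.70 (HMGCS1, the highest). The matched genes without a CCAAT box ranged from -0.10 (SCAP) to 0.77 (CYP51A1). Whether the letters go with the ratios was not tested.

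The mevalonate pathway began with the largest difference of all 32 genes. HMGCS1, the synthase that condenses acetoacetyl-CoA with acetyl-CoA to HMG-CoA, had 2 probes 964 bases apart in hg18. The probe at chr5:43326838-43326897 read 1296 in SAS and 5477 in eSAS (4.39-fold), and the probe at chr5:43325874-43325933 read 4104 and 9532 (2.41-fold). Both were higher in eSAS, and they differed from each other by more than the spread usual between probes of a gene. Their mean was a log2 ratio of 1.70 (3.25-fold), rank 46 from the top among the 19467 genes. ACAT2 makes the acetoacetyl-CoA that HMGCS1 uses. Its 2 probes read 656 and 1120, and 2552 and 4571, a 1.82-fold difference (log2 0.86) that both probes gave.

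Next come the kinases that phosphorylate mevalonate and the decarboxylase that yields the isoprenoid unit. MVK, mevalonate kinase, read 239 in SAS and 376 in eSAS with 1 probe and 8442 and 12330 with the other, 1.57-fold higher in eSAS (log2 0.65). PMVK, which adds the following phosphate, read 1563 and 1560 (1.04-fold after scaling), within the spread of replicate spots, and was the lowest gene of the pathway. MVD, the decarboxylase, read 221 and 420 with its only probe, a 1.97-fold difference (log2 0.98, rank 201 from the top). The MVD log2 ratio depended on the background correction. It was 0.85 without correction and 0.78 with normexp without the marked local backgrounds, below IDI1 in both (0.87 and 0.88). The kinase PMVK thus stood apart from its neighbours on either side.

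IDI1 interconverts the isoprenoid units. It read 2552 in SAS and 4575 in eSAS, 1.86-fold higher (log2 0.90). FDPS joins the units to farnesyl diphosphate, the branch point towards sterols, and read 26280 and 35033, a 1.38-fold difference (log2 0.47). GGPS1 draws farnesyl diphosphate off to geranylgeranyl diphosphate, which anchors small GTPases to membranes, and read 1946 and 2646, 1.41-fold higher (log2 0.50). FDPS and GGPS1 were both higher in eSAS by less than 1.5-fold and differed from each other by less than the replicate-spot SD. Pseudogenes with matching names exist for IDI1 (3), FDPS (10), CYP51A1 (3), HSD17B7 (2) and SCD (1), and how far their transcripts bind these probes was not tested.

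The enzymes that commit farnesyl diphosphate to sterol and close the ring were higher in eSAS. FDFT1, squalene synthase, read 11083 in SAS and 19306 in eSAS (1.81-fold, log2 0.86). SQLE, squalene epoxidase, a rate-limiting step, read 13807 and 19474 (1.46-fold, log2 0.55). LSS, lanosterol synthase, forms the sterol ring and had 4 probes. They read 5143 and 8227, 2790 and 4517, 77.1 and 157, and 64.3 and 104, and their log2 ratios lay between 0.73 and 1.08. All 4 LSS probes were thus higher in eSAS, bright and dim ones alike, and their mean was 1.78-fold (log2 0.83).

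The steps from lanosterol to cholesterol were split. CYP51A1, which removes the first methyl group of lanosterol, read 7088 in SAS and 11707 in eSAS with 1 probe and 3698 and 6069 with the other, 1.71-fold higher (log2 0.77). TM7SF2, a sterol reductase that acts next, read 1944 and 2005, and 127 and 128, only 1.06-fold apart (log2 0.082). NSDHL, a dehydrogenase of the demethylation complex, read 475 and 373 and was the lowest of the 32 genes, 1.23-fold lower in eSAS (log2 -0.30). HSD17B7, the reductase of the same complex, lay on the other side. Its probes read 787 and 1338, and 596 and 966, a 1.72-fold difference (log2 0.79).

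Of the last enzymes, EBP, the sterol isomerase, read 25594 in SAS and 20751 in eSAS, 1.19-fold lower (log2 -0.25). The 8 spots around its only probe had a median log2 ratio of -0.21, close to that of EBP itself, and their part in the EBP value was not tested. SC5DL (now SC5D), the desaturase after EBP, had 3 probes, which read 1579 and 1941, 921 and 1136, and 45.8 and 46.8. The dim probe was nearly equal in both cells, and the mean log2 ratio was 0.27 (1.20-fold). DHCR7 reduces the last intermediate to cholesterol. It read 34333 and 56807, a 1.72-fold difference (log2 0.78). The 5 genes of this group past 1.5-fold, FDFT1, LSS, HSD17B7, DHCR7 and CYP51A1, lay between 0.77 and 0.86 on the log2 scale, and neighbours in that order did not differ beyond the replicate-spot SD.

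**Figure D2:**
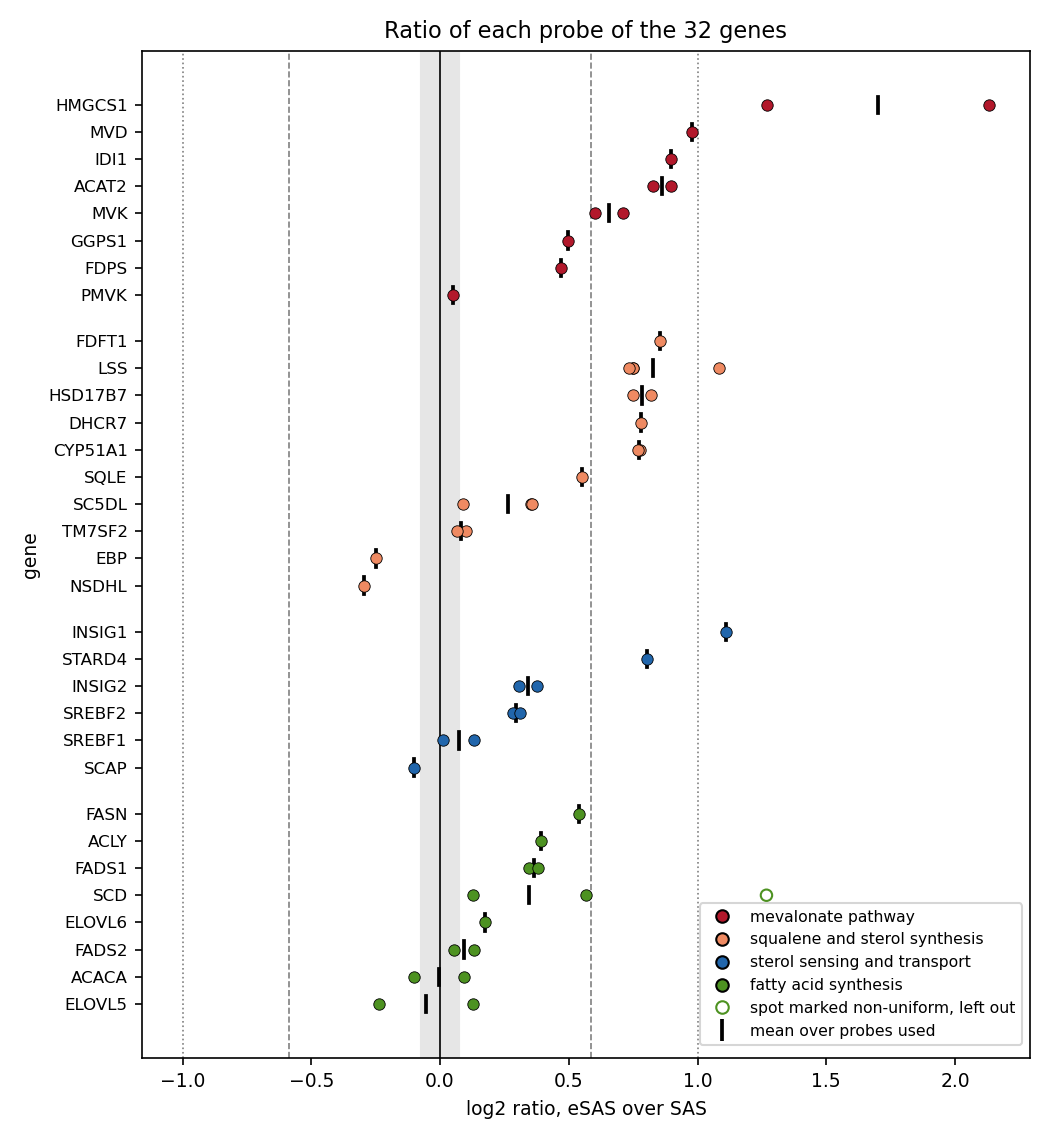
Log2 ratio, eSAS over SAS, of each probe (x axis) for the 32 genes (y axis), ordered within the 4 groups. Filled points are probes used, vertical bars their mean, the open point the marked SCD spot that was left out, the grey band the replicate-spot SD on each side of 0, dashed lines 1.5-fold and dotted lines 2-fold. HMGCS1 reached 1.70 and INSIG1 1.11, no fatty acid gene passed the 1.5-fold line, and NSDHL was lowest at -0.30.

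Among the regulators, the largest difference was in the protein that holds SREBPs back. INSIG1 read 4825 in SAS and 10031 in eSAS at its only probe, at chr7:154731004-154731063 of hg18, a 2.16-fold difference (log2 1.11, rank 154 from the top). INSIG1 is itself a well-known SREBP target. Its relative INSIG2 had probes of 3532 and 4413, and 1336 and 1594, 1.27-fold higher in eSAS (log2 0.34). The 2 INSIG2 probes lay close together and well below the INSIG1 value.

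The transcription factors themselves differed little. SREBF1 read 16768 in SAS and 16281 in eSAS with 1 probe and 558 and 589 with the other (1.05-fold after scaling, log2 0.072). SREBF2 read 2947 and 3453, and 703 and 839 (1.23-fold, log2 0.30), so both of its probes were higher in eSAS by more than the replicate-spot SD. SCAP, their escort, read 4063 and 3648, 1.07-fold lower in eSAS (log2 -0.10). SREBP activity depends on cleavage of the protein, which mRNA signals do not show. STARD4, a carrier that moves cholesterol between membranes, read 755 and 1268, a 1.74-fold difference (log2 0.80), and was the other gene of this group past 1.5-fold.

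Fatty acid synthesis differed less than sterol synthesis in these arrays. ACLY, which splits citrate to supply the acetyl-CoA for both routes, read 2989 in SAS and 3781 in eSAS (1.31-fold, log2 0.39). ACACA, the carboxylase that forms malonyl-CoA, had probes of 270 and 278, and 771 and 693, which lay on opposite sides of 0 and averaged -0.0026. FASN, the synthase that builds palmitate, read 487 and 681 with its only probe, 1.45-fold higher (log2 0.54), the highest of this group. That FASN spot lies in rows 450 to 510, which held 183 of the 194 spots marked non-uniform on the SAS array, and the spot itself was not marked.

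SCD, which puts the double bond into stearate, could not be given a firm value. Its 2 unmarked probes read 2759 and 2901, and 304 and 433, for log2 ratios of 0.13 and 0.57 and a mean of 0.35 (1.27-fold). The other SCD spot, in row 483 at chr10:102110682-102110741 of hg18, read 1705 in SAS and 3953 in eSAS (log2 1.27), and the software marked it as non-uniform on the SAS array. The SD of its pixels was 0.652 of the mean there and 0.166 on the eSAS array. With that spot kept, SCD averaged 0.65 and would have been the only fatty acid gene past 1.5-fold.

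Apart from FADS1, the desaturases and elongases of longer fatty acids had nearly equal signals in both cells. FADS1, the delta-5 desaturase, read 4349 in SAS and 5320 in eSAS, and 8023 and 10071 with its other probe (1.29-fold, log2 0.36). FADS2, the delta-6 desaturase, read 2298 and 2423, and 19.2 and 19.2 at a dim probe (1.07-fold, log2 0.094). ELOVL6, which extends palmitate, read 2145 and 2333 (1.13-fold, log2 0.18). ELOVL5, which extends polyunsaturated chains, had probes of 1227 and 1291, and 219.7 and 179, whose log2 ratios lay on opposite sides of 0, at 0.13 and -0.24, and averaged -0.055. Of the 8 genes, FASN, ACLY, FADS1 and SCD were the 4 highest, and ELOVL6, FADS2, ACACA and ELOVL5 lay within the spread between probes of a gene.

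The ratios of spots around those of the 32 genes were also taken. The 8 spots nearest to each of the 51 unmarked probes had median log2 ratios from -0.21 to 0.19, with a median of 0.0008. The lowest was around EBP and the highest around an SCD probe, both beyond the replicate-spot SD, and around both HMGCS1 probes the median was -0.16. Of the 52 probes, 8 lay in rows 450 to 510. Without those rows 31 of the 32 genes kept a value, FASN being lost, and the same 12 genes were at least 1.5-fold higher.

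Other lists of lipid genes showed which neighbours of the pathway had similar values. Of the remaining sterol enzymes, 7 of 8 on the array were measured, and their median log2 ratio was -0.11. The highest was SC4MOL (now MSMO1), the methyl oxidase that works with NSDHL and HSD17B7, which read 329 in SAS and 794 in eSAS (2.51-fold, log2 1.33). The lowest was PGRMC1, a haem-binding partner of sterol cytochromes, 1.54-fold lower in eSAS (log2 -0.62) at a probe in rows 450 to 510. These were the only genes of that list past 1.5-fold, against 3.19% of all genes higher and 4.99% lower. The 9 genes that process SREBPs or turn them and INSIGs over were close to 0, with a median of -0.020. None was past 1.5-fold in either direction, and in a list this short that is near the shares of all genes. The 9 genes ranged from MBTPS2, the protease that frees the active fragment in the membrane (log2 -0.38), to ERLIN1 (0.28). The MBTPS2 probe that was well above background lies in rows 450 to 510.

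The genes of cholesterol uptake, storage and export had a median of 0.019. None of the 13 measured was at least 1.5-fold higher, against 3.19% of all genes. LIPA, the lysosomal lipase that frees cholesterol from its esters, was highest at a log2 ratio of 0.58, just under 1.5-fold. Its probe lies in rows 450 to 510. ABCA1, the pump that loads cholesterol onto lipoprotein, was lower in eSAS. Its brightest probe read 405 in SAS and 120 in eSAS, 3.25-fold lower (log2 -1.70). At another ABCA1 probe the signals were 53.0 and 16.2, not well above background in eSAS, so that it was at least 3.16-fold lower, and the last ABCA1 probe was not well above background in either. ABCG1, an exporter of the same family, read 52.2 and 13.5 and was well above background in SAS only, at least 3.31-fold lower in eSAS. In each bound, the eSAS value was the higher of the signal of the probe and 15.2, the lowest signal well above background on that array. The genes of the sterol-sensing LXR receptors, NR1H2 and NR1H3, named here after their values were seen, had log2 ratios of 0.31 and 0.17. Whether the targets of these receptors differed as a set was not tested.

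**Figure D3:**
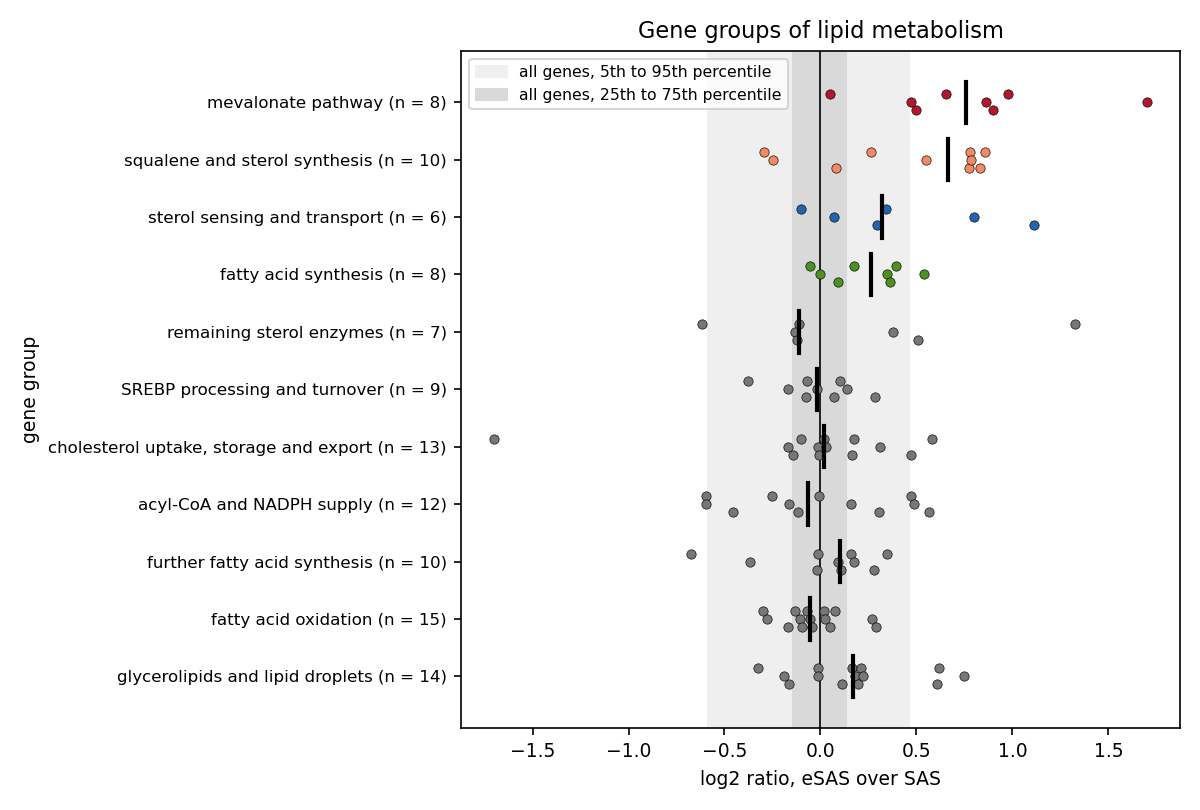
Log2 ratio, eSAS over SAS (x axis), of the measured genes (points) of the 4 groups of the 32 genes, in colour, and of 7 other lists of lipid genes, in grey; vertical bars are medians. Shading gives the range of all 19467 genes from the 5th to the 95th percentile (-0.58 to 0.46) and from the 25th to the 75th. The medians of the mevalonate and sterol groups are 0.76 and 0.66, those of the 7 other lists lie between -0.11 and 0.17, and ABCA1 is the point farthest to the left.

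The folds of the 32 genes were recomputed under 15 other settings. The 12 genes past 1.5-fold were the same 12 with quantile normalization, no background correction, median pixels or the brightest probe alone. With the brightest probe HMGCS1 stood at 1.27 on the log2 scale. No scaling and median centring also kept the 12, but they only shift all genes by a constant. Other filters on dim probes could not change these ratios, because all 52 probes were well above background on both arrays. Nor could the deposited series values, which equal the processed signal. With marked spots kept SCD joined the 12 genes, and normexp without the marked local backgrounds left MVK just under the limit. Normexp on all spots departed from these, as given above.

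**Figure D4:**
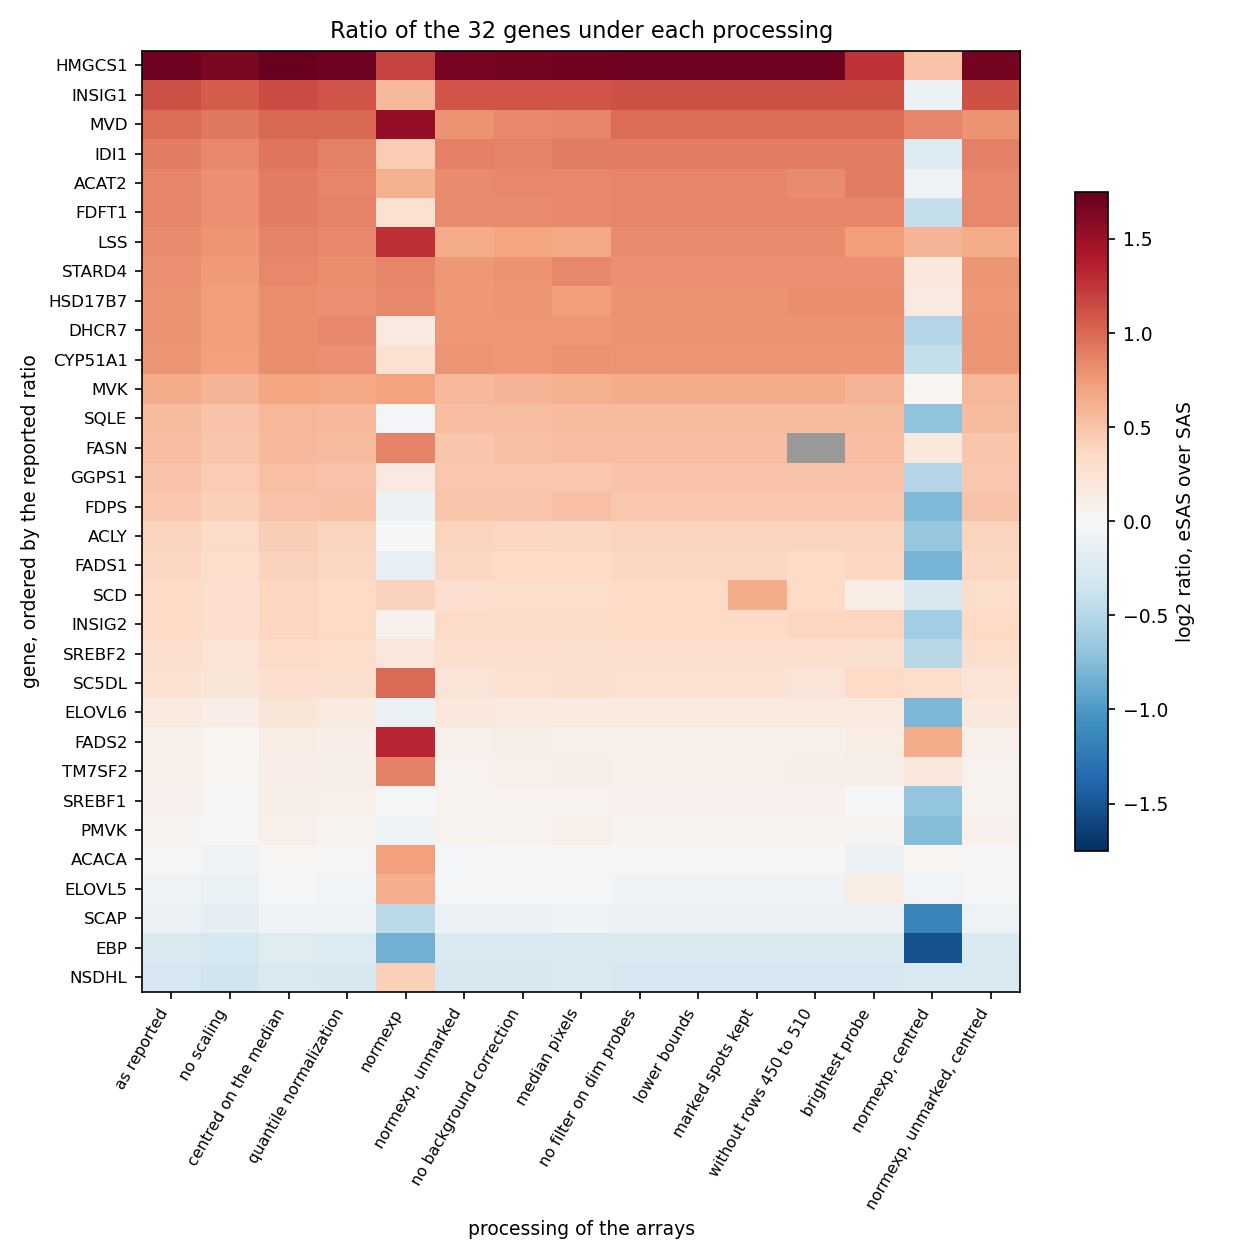
Log2 ratio, eSAS over SAS (colour scale), of the 32 genes (y axis, ordered by the reported ratio) under each processing of the arrays (x axis); grey marks a gene without a value. The columns resemble each other apart from normexp on all spots, with 13 of the 32 genes at least 1.5-fold higher uncentred (52.4% of all genes) and 3 after centring on all genes (35.95% of all genes), and HMGCS1 is lower with the brightest probe alone.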

How the data were processed

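SAS and eSAS RNA was hybridised to 1-colour Agilent arrays, 1 per cell population. The deposited tables come from Agilent Feature Extraction 10.7.3.1 (submitters' processing notes), and their linear intensity values are corrected for background and for spatial trends and are not scaled between arrays. The deposited series table was equal to the processed signal for 100% of the spots. Each array held 43376 probe spots, of which 69.4% (SAS) and 67.5% (eSAS) were well above background and 0 were saturated. Scaling and filters of the study are not given in the sources used here.

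Processed signals were divided by the 75th percentile of their array (1242 and 1196) and put on the log2 scale. Replicate spots were averaged, control spots and spots marked non-uniform or as population outliers on either array were left out, and probes well above background in more than 50% of their spots on both arrays were averaged per gene name of the array. With 1 array per population no test was made, and a gene was counted when it passed 1.5-fold or 2-fold.

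The 32 genes and the other lists were chosen with earlier results of these data known. Named are all 32 genes, the highest and lowest gene of each other list, and listed genes at least 2-fold apart; a few single genes are not reported here. Positions of probes are given in hg18, as on the array. Promoters come from RefSeq (GRCh38.p14). The alternatives were 3 other scalings, normexp (offset 50) and other backgrounds, other filters and the brightest probe. The counting was tested on simulated data, in Python 3.11.15, and normexp was run in limma 3.58.1 under R 4.3.3.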

Additional observations from a re-analysis of the deposited data

How the results depend on the processing

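Normexp with the mean pixels of all spots gave other results. It reversed the median of the 32 genes relative to all genes to -0.27, with 1 gene lower by 1.5-fold or more and 4 higher by 2-fold or more, while 52.4% of all genes were at least 1.5-fold higher. Centring on all genes, which was added after seeing the data, subtracts a constant and so could not change the -0.27. It left 3 genes higher and 10 lower by 1.5-fold or more, and 0 higher and 2 lower by 2-fold or more. Of all genes, 35.95% were then 1.5-fold higher and 34.2% lower, so ratios were wider throughout. Of the called genes, these then reversed: IDI1 (-0.24), ACAT2 (-0.058), FDFT1 (-0.42), CYP51A1 (-0.42), DHCR7 (-0.52) and INSIG1 (-0.11). Without the 26 eSAS spots of marked local background, normexp returned to 11 genes at least 1.5-fold higher, all among the 12, with MVK at 0.57. Under the other settings the count was 12 or, with marked spots kept, 13 (SCD added), and the median relative to all genes lay between 0.37 and 0.48. With other filters on dim probes and with the deposited series values, the count could not have differed. No paired analysis was possible because there was 1 array per population, and no replicate could be left out. Both arrays were on 1 slide, so the slide was not fitted as a block. All 52 probes were well above background, although the dimmest, of FADS2, read 19.2 in SAS, where the lowest such signal was 12.8.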

Other observations

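Lists of fatty acid oxidation, fatty acid supply and glycerolipid genes were also measured. Of 15 measured genes of fatty acid oxidation, none was past 1.5-fold in either direction by its mean over probes. Of all genes, 3.19% were higher and 4.99% lower by that much. The median log2 ratio of the 15 genes was -0.054. CPT1A, which brings fatty acids to the mitochondrion for oxidation and is named after its values were seen, had probes that disagreed. The signals were 75.5 in SAS and 161.5 in eSAS at 1 probe (2.22-fold higher, in rows 450 to 510) and 63.0 and 39.6 at the other (1.53-fold lower), and their mean was 0.27. The highest was DECR1, which handles unsaturated chains (0.29). The 10 measured genes of further fatty acid synthesis had a median of 0.10. The lowest was SCD5, a desaturase related to SCD, 1.59-fold lower in eSAS (-0.67), and the highest was the elongase ELOVL1 (0.35).

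The 12 measured genes of acyl-CoA and NADPH supply had a median of -0.063. None was at least 1.5-fold higher and 2 were at least 1.5-fold lower, against 3.19% and 4.99% of all genes. The lowest was ACSS1, the mitochondrial acetyl-CoA synthetase (-0.60). The highest was ACSL1, which activates long-chain fatty acids (0.57). Glycerolipid and lipid droplet genes had a median of 0.17 over 14 genes. Of these, 3 were at least 1.5-fold higher (21.4%, against 3.19% of all genes) and none lower (against 4.99%). MGLL, which splits monoglycerides, was highest at 0.75, and M6PRBP1, a droplet coat protein, was lowest at -0.33. LPIN1 stood at 0.62 and PNPLA3 at 0.61, this pair named after their values were seen. The LPIN1 probes differed, with 93.3 in SAS and 163 in eSAS at the dim probe (log2 0.86). The brighter LPIN1 probe read 3751 and 4680 (log2 0.37), which is below 1.5-fold.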
